A study of Mus musculus with 6 samples.

Results

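The Zfp genes of the mouse are named for the zinc fingers of their proteins, and they are described here as the genes whose symbol is Zfp followed by digits only, with Zfp36, which encodes an RNA-binding protein of another kind, left out. By this rule 222 of the 8520 genes in the deposited table were members, found by matching gene numbers to the RefSeq annotation of assembly GRCm38.p6. RefSeq lists 371 such symbols, and the other 149 were not analysed here. RNA was sequenced from natural killer (NK) cells, lymphocytes of innate immunity that each carry some members of the Ly49 receptor family, sorted from spleens of 20 C57Bl/6Ncr mice aged 6 to 8 weeks with no treatment. Both groups were CD3- NK1.1+ cells after magnetic enrichment. The Ly49G+ group was Ly49G+ and Ly49C/I-, the Ly49I+ group was Ly49G- and Ly49C/I+, and each had 3 libraries. No animal carried a named mutation or transgene. How many mice fed each library is not stated, so p-values speak only for the spread among these 6 libraries, which may be technical.

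Libraries held 33599679 to 40892154 reads, and levels are given in CPM, counts per 1000000 reads of the library. Klra7, which encodes Ly49G, lay between 917.1 and 1037 CPM in Ly49G+ and between 10.79 and 11.72 in Ly49I+ libraries, and Klra9, which encodes Ly49I, between 74.08 and 84.09 and between 990.2 and 1194. All 10 NK cell markers were measured, at a summed 12710 to 13090 CPM in Ly49G+ and 13520 to 14250 in Ly49I+. T cell markers (5 of 10 measured) summed to 194.1 to 256.2 CPM in Ly49G+ and 103.7 to 115.1 in Ly49I+. Myeloid markers (11 of 12 measured) summed to 42.29 to 80.87 CPM in Ly49G+ and to 295.3 to 1289 in Ly49I+, the highest in Ly49I+ replicate 2. B cell markers (4 of 10 measured) summed to 281.6 to 402.1 and 188.0 to 429.5 CPM, and none of 6 erythroid markers was measured. In the limma test used below, all 5 measured T cell markers passed higher in Ly49G+ and 9 of the 11 myeloid markers higher in Ly49I+. Of the NK cell markers 1 passed higher in Ly49G+ and 3 higher in Ly49I+. No B cell marker passed, and 3.59% of all genes did. Cd28 was the largest part of the T cell sum, with means of 134.5 CPM in Ly49G+ and 82.56 in Ly49I+, while Cd3e was at 13.08 and 0.94. The part of these cells in the differences below was not tested, and in such sorted bulk samples fewer cells of a type and less RNA per cell cannot be told apart.

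A C2H2 zinc finger is a short fold in which a pair of cysteines and a pair of histidines hold a zinc ion. Arrays of such fingers read DNA, a few bases to each finger, and some bind RNA or other proteins. Many members also carry a KRAB A box, a short domain that binds the scaffold protein TRIM28 (KAP1). TRIM28 brings the histone methyltransferase SETDB1, heterochromatin proteins and deacetylases to the site, and KRAB zinc finger proteins are known above all for silencing retrotransposons that have integrated into the genome. They have multiplied in mouse by local gene duplication and sit in clusters of related genes. Members without a KRAB box are a mixed set that includes promoter-binding activators, spindle proteins and RNA-binding proteins.

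In these NK cells 128 members coded for a protein with a KRAB A box and 94 did not, judged from translated GENCODE coding sequences by how many of 17 conserved positions of the box matched, with 10 required. All proteins with the box scored at least 11, and those without scored at most 6 apart from Zfp746 at 9. The median member had 11 fingers, with 12 among KRAB members and 8 among the others. Zfp142 had the most, 36, and the finger pattern found 0 in Zfp330 and Zfp703.

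The members were transcribed at low to middle levels for this table. Their median was 31.95 CPM, against 47.39 for all genes, and 7.02 CPM per kb of exon (kilobase of the gene's merged exons) against 10.7. KRAB members had a median of 6.11 CPM per kb and the others 7.95. From the highest to the lowest member the mean level per kb spanned 76.7-fold, from 78.2 to 1.02 CPM per kb. Across members the level per kb and the number of fingers had a Spearman rho of -0.22. That value describes 222 genes of the same 6 libraries, which are not independent replicates. Members with 1 to 5 fingers had a median of 10.35 CPM per kb, those with 6 to 10 had 7.79 and those with 11 to 15 had 7.11. The fall was not even, with 3.99 for 16 to 20 fingers, 5.96 for 21 or more and 4.07 for the 2 members with 0. These sets also differed in KRAB members, with 4 of 38 at 1 to 5 fingers and 23 of 31 at 16 to 20.

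**Figure D1:**
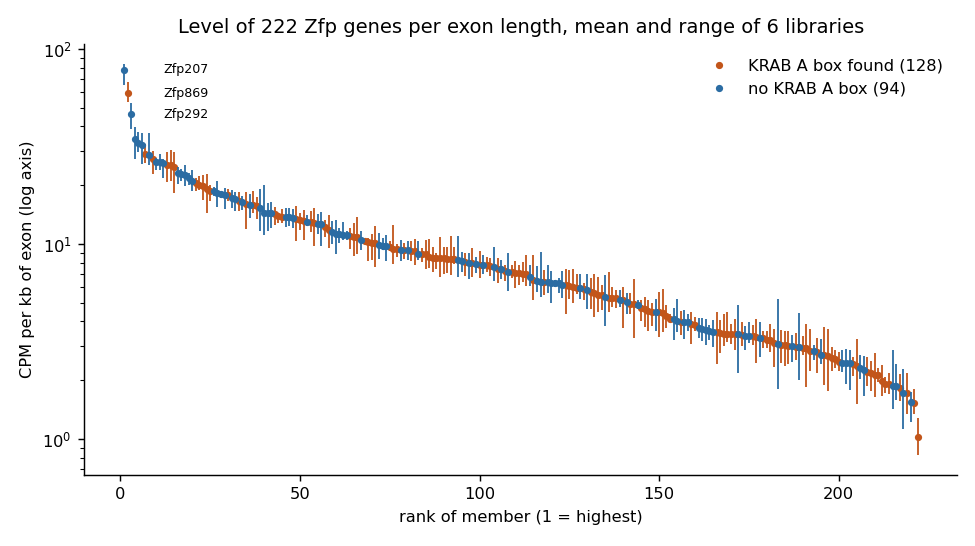
Mean level of each of the 222 members in CPM per kb of exon (log axis), ordered by rank, with a line from the lowest to the highest of the 6 libraries; colour marks the 128 members with and the 94 without a KRAB A box. Levels run from 78.2 CPM per kb for Zfp207 to 1.02 for the lowest member, and KRAB and other members are mixed along the whole range.

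Zfp207, which encodes the spindle assembly protein also called BuGZ, was the highest member per kb, with a mean of 78.2 and a range over libraries of 65.3 to 84.0 CPM per kb. It was followed by the KRAB member Zfp869 (59.1, range 53.7 to 67.4), by Zfp292 (46.1, 38.9 to 52.8), by Zfp800 (34.4, 27.1 to 40.0), by Zfp143, a transcription factor of many promoters (33.0, 29.6 to 37.5), and by Zfp62 (32.2, 25.8 to 36.9). The ranges of Zfp207 and Zfp869 overlapped narrowly, and those of Zfp800, Zfp143 and Zfp62 overlapped almost wholly. Each range pools the 6 libraries, so an overlap does not settle the order of genes within a library. Of these 6 genes Zfp869 alone coded for a KRAB A box. The merged exons of Zfp869 span only 1590 bases for a protein of 529 residues, so they hold little beside the coding sequence. Not divided by length, its mean of 93.94 CPM lay below those of Zfp62 (195.1) and Zfp800 (166.2). The rank of Zfp869 thus depends on its annotated length. At the low end stood Zfp846 (1.02, range 0.825 to 1.28), Zfp90 (1.53, 1.33 to 1.81), Zfp41 (1.55, 1.22 to 1.75), Zfp300 (1.72, 1.35 to 2.18), Zfp174 (1.72, 1.12 to 2.29) and Zfp78 (1.81, 1.57 to 2.14). The last 5 of these overlapped each other. Of the exon bases of Zfp90, 79.5% also lie in other genes, so its level is uncertain. Merged exons ran to 13778 bases for Zfp846 (541 residues) and 8595 for Zfp41 (198 residues), so these low ranks also depend on annotated length.

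Members of known function in lymphocytes or with a well-described general role were measured in most cases. None passed the test between the populations, which 3.59% of all genes passed, so for a list of this length that is near the background. Of 20 such genes listed, 16 were in the table, and their log2 differences (Ly49G+ minus Ly49I+) ran from -0.16 to 0.30 with adjusted p from 0.251 to 0.938. The upper end, 0.30, was that of Zfp932, whose direction was partly fixed by the filter on low values described below. Zfp318, needed by B cells to make the IgD receptor form, stood at 150.3, 150.6 and 144.3 CPM in Ly49G+ and 177.6, 154.2 and 145.9 in Ly49I+ libraries. Its groups overlapped. Zfp335, a factor required for T cell maturation, stood at 136.2, 120.1 and 128.1 CPM in Ly49G+ and at 127.6, 130.2 and 174.6 in Ly49I+, where replicate 3 was high. For Zfp91, an atypical ubiquitin ligase, the values were 173.7, 186.2 and 182.5 CPM in Ly49G+ and 164.9, 169.4 and 148.2 in Ly49I+, so the groups did not overlap (log2 difference 0.17 ± 0.08, SE, adjusted p = 0.251).

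The GC-rich-sequence binding factors Zfp148 and Zfp281 were almost level, with means of 226.1 ± 13.3 and 224.0 ± 15.6 CPM for Zfp148 and 92.27 ± 3.59 and 91.37 ± 5.19 for Zfp281 in Ly49G+ and Ly49I+ (SD, n = 3 each here and below). Zfp384, a recurrent fusion partner in leukaemia, stood at 77.49 ± 5.85 and 84.75 ± 5.41 CPM. Proteins that act on RNA included Zfp106 (286.7 ± 2.63 and 264.3 ± 13.1 CPM), Zfp638 (374.1 ± 25.4 and 342.9 ± 39.4 CPM) and Zfp326, a member of the DBIRD complex (28.05 ± 2.19 and 24.78 ± 2.63 CPM). Only Zfp106 of these 3 had groups that did not overlap. Zfp638 is also known for silencing retroviral DNA that has not integrated.

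KRAB members whose targets are known were present as well. Zfp445, which keeps the methylation of imprinted genes, stood at 210.8 ± 16.5 CPM in Ly49G+ and 190.9 ± 24.7 in Ly49I+. Zfp809, which silences retroviruses that use a proline tRNA primer site, stood at 62.21 ± 5.06 and 55.31 ± 6.20 CPM. Zfp568, the repressor of a placental Igf2 promoter, was level at 68.16 ± 5.33 and 70.26 ± 0.66 CPM. Zfp932, known for acting on endogenous retroviruses, was low and varied widely, at 11.99, 10.74 and 6.22 CPM in Ly49G+ and 10.31, 5.77 and 7.28 in Ly49I+. It reached 10 CPM in more Ly49G+ than Ly49I+ libraries, so its presence in the table depended on the population where it was higher. In the groups of Zfp445, Zfp809, Zfp568 and Zfp932 values overlapped.

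Replicates of one population differed somewhat more for members than for all genes. Members had a lower median level (31.95 against 47.39 CPM), and spread was not compared at like level. The median SD within a group was 0.15 on the log2 scale for members (0.16 for KRAB members, 0.14 for the others) and 0.12 for all genes. The widest spread was that of Zfp628, at 9.52, 9.19 and 10.53 CPM in Ly49G+ but 6.32, 10.78 and 18.48 in Ly49I+. Zfp768, Zfp932, Zfp668 and Zfp865 followed, with SDs from 0.47 down to 0.35. For Zfp628, Zfp668 (9.70, 12.25 and 19.25 CPM in Ly49I+) and Zfp865 (26.65, 27.39 and 43.42) it was Ly49I+ replicate 3 that stood high. The GC content of their transcripts was 63.5% for Zfp628, 59.7% for Zfp768, 57.0% for Zfp865, 51.4% for Zfp668 and 37.4% for Zfp932. At the other end, the 6 values of Zfp142 had an SD of 0.01 within groups.

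Between the populations Zfp512 alone of the 222 members passed the test: limma placed 1 member above and 0 below in Ly49G+ cells, while 221 did not reach an adjusted p of 0.05 over the whole table. Of all 8520 genes 3.59% passed, 1.82% higher in Ly49G+ and 1.77% higher in Ly49I+, so the share of members called, 0.45%, lay below the background. Without adjustment 26 members were higher and 8 lower in Ly49G+ at p under 0.05, which is 15.3% of members and compares with 19.8% of all genes. Differences were small throughout, from -0.41 to 0.63 on the log2 scale, and 218 members differed by less than 1.5-fold. In 21 members every Ly49G+ library was above every Ly49I+ library (12.5% of all genes did this) and in 11 every one was below (13.4% of all genes). For the remaining 190 the groups overlapped.

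**Figure D2:**
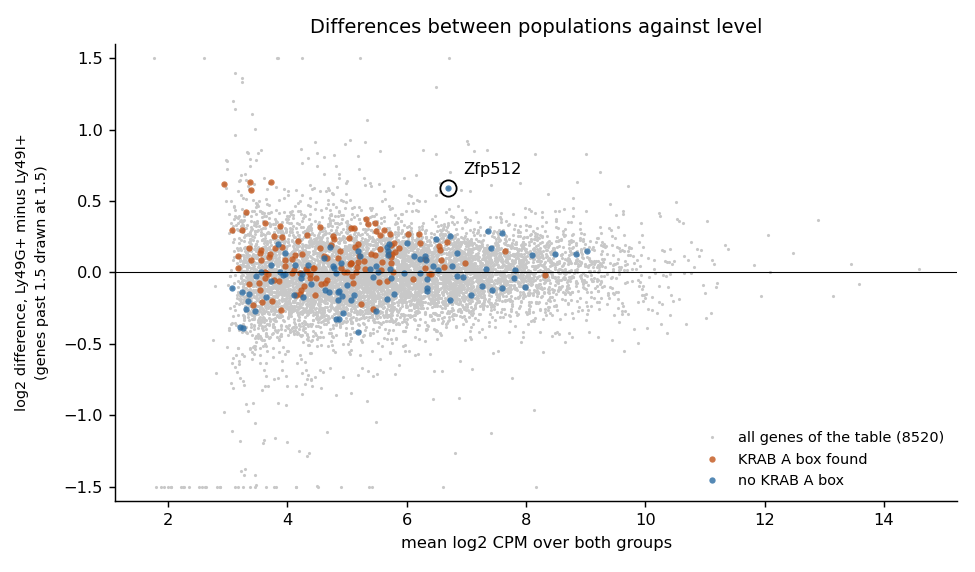
Log2 difference (Ly49G+ minus Ly49I+) of each gene against its mean log2 CPM over both groups; grey points are the 8520 genes of the table, coloured points the members with and without a KRAB A box, and Zfp512 is ringed. Members lie within -0.41 (Zfp710) and 0.63 (Zfp970 and Zfp808).

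Zfp512 (gene 269639, chromosome 5, 31452421 to 31481754 on GRCm38.p6, plus strand) codes for a protein of 562 residues with 3 recognised fingers and no KRAB A box. Its level was 124.4, 132.0 and 124.0 CPM in Ly49G+ replicates and 84.66, 80.31 and 87.89 CPM in Ly49I+ replicates. All Ly49G+ values were far above all Ly49I+ values, with little spread on either side. Means were 126.8 ± 4.47 and 84.28 ± 3.80 CPM, a 1.5-fold difference resting on 2932 to 4768 reads per library. On the log2 scale the difference was 0.59 ± 0.07 (SE, adjusted p = 0.00208), and 0.000196 with the replicate block, which compares libraries of the same replicate number. It passed in all 15 alternatives, which gave differences of 0.50 to 0.62 and adjusted p from 0.000196 to 0.0257. None of its 100-base transcript windows occurs in another gene and none of its exon bases lies in one. Per kb it ranked 39th of the 222, at 15.3 CPM per kb.

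The promoter windows of Zfp512 and of the KRAB members Zfp970 and Zfp141, the members higher in Ly49G+ with the next smallest p, are shown because Zfp512 is the member called and the other two lead the KRAB members higher in Ly49G+, although neither passed the main test. Each is a 300-base window around a transcription start taken from a RefSeq promoter table for GRCm38.p6, a start that for Zfp512 and Zfp141 is not the outermost end of the gene. The windows lie at chr5:31452186-31452485 on the plus strand for Zfp512, at chr2:177464492-177464791 on the plus strand for Zfp970 and at chr7:42505704-42506003 on the minus strand for Zfp141. Capitals mark matches, on either strand, to a GC box (GGGCGG), an ETS motif (CCGGAAG), an NRF1 motif (GCATGCGC), an E-box (CACGTG) or a CCAAT box (CCAAT).
Zfp512: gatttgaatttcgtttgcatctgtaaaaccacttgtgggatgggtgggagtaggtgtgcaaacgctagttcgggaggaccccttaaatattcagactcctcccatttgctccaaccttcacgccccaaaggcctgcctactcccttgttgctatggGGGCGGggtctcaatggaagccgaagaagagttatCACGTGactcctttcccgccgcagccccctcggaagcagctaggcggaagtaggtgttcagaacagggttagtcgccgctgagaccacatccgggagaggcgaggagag
Zfp970: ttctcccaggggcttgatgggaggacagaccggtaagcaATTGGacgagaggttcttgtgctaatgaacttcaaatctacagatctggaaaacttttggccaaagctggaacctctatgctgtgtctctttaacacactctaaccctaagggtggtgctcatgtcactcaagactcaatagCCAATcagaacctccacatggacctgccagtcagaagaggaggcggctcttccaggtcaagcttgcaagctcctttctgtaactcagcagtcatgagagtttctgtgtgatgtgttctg
Zfp141: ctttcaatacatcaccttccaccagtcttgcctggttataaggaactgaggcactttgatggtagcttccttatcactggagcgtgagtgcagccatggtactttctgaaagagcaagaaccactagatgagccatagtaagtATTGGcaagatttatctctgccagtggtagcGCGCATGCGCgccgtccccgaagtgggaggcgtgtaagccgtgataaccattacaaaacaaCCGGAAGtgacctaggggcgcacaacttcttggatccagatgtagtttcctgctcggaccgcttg
The window of Zfp512 holds 15 CpG dinucleotides, 1 GC box and 1 E-box, that of Zfp970 only 3 CpG and 2 CCAAT boxes, and that of Zfp141 13 CpG, 1 ETS motif, 1 CCAAT box and 2 NRF1 matches that overlap on opposite strands. These are letter matches, not measured sites.

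A promoter entry was found for 189 members, 114 of them KRAB, and for 27025 genes in all. A GC box occurred in 50.8% of member windows and 44.7% of KRAB windows, against 66.9% over the 6842 table genes with an entry and 35.9% of all windows. CCAAT boxes occurred in 52.9% of member and 57.9% of KRAB windows, against 39.0% of table genes and 37.9% of all windows. Shares of the ETS motif were 22.2%, 22.8%, 22.4% and 9.12% in the same order, those of the NRF1 motif 5.82%, 5.26%, 6.39% and 2.81%, and those of the E-box 7.94%, 9.65%, 10.7% and 7.24%. The median window held 15 CpG in members, 22 in table genes and 7 in all genes. Member windows thus held a GC box less often and a CCAAT box more often than windows over the whole table did, a description with no test.

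Next to Zfp512 stood 5 KRAB members that were higher in Ly49G+ without passing the main test. Zfp970 (chromosome 2, 14 fingers) was at 14.38, 13.12 and 11.34 CPM in Ly49G+ and 8.46, 9.44 and 7.15 in Ly49I+, with a log2 difference of 0.63 ± 0.17 (adjusted p = 0.0756, and 0.0221 with the block). Every Ly49G+ value was above every Ly49I+ value. It passed also without the intensity trend of the variance (adjusted p = 0.0470), and over its 14 alternatives the adjusted p ran from 0.0221 to 0.258. Zfp141 (chromosome 7, 10 fingers) was at 43.51, 53.48 and 40.80 against 38.11, 34.02 and 33.63 CPM, a difference of 0.37 ± 0.11 (adjusted p = 0.105, and 0.0305 with the block). Its groups did not overlap either, and its adjusted p ran from 0.0305 to 0.378 over 15 alternatives.

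Zfp808 (chromosome 13, 22 fingers) stood at 18.24, 17.08 and 14.42 CPM in Ly49G+ and at 15.04, 8.76 and 9.15 in Ly49I+. Its groups overlapped, since Ly49I+ replicate 1 lay within the Ly49G+ range, and the difference was 0.63 ± 0.21 (adjusted p = 0.132, and 0.0200 with the block). Without Ly49I+ replicate 1 it was 0.88 (adjusted p = 0.0122, in a range of 0.0122 to 0.384 over 14 alternatives). Zfp991 and Zfp992 both lie on chromosome 4 and have 11 fingers each. Zfp992 stood at 12.83, 14.75 and 11.12 against 9.90, 9.24 and 6.87 CPM (0.58 ± 0.19, adjusted p = 0.126, 0.0337 with the block, range 0.0337 to 0.422 over 14 alternatives). Zfp991 ran from 7.83 to 10.88 CPM in Ly49G+ and from 5.49 to 7.07 in Ly49I+ (0.62 ± 0.20, adjusted p = 0.131, range 0.0519 to 0.418). In both genes the groups did not overlap. Of the 100-base windows of Zfp991 70.3% occur also in another gene, and of those of Zfp992 28.6%, Zfp970 17.4% and Zfp808 9.46%, so how reads were divided among near-identical copies makes their levels uncertain. Zfp970, Zfp991 and Zfp992 reached 10 CPM in Ly49G+ libraries only, and Zfp808 did so in 3 Ly49G+ libraries and 1 Ly49I+ library. Every gene of the table reached that level in at least 2 libraries, which is taken here as its filter. The presence of these 4 genes in the table thus depended on the population where they were higher. With each library's trend over transcript GC content removed, as set out below, the differences of these genes and of Zfp141 were smaller. They were 0.52 for Zfp970, 0.26 for Zfp141, 0.48 for Zfp808, 0.46 for Zfp991 and 0.43 for Zfp992. None passed in that limma fit, with or without the block (lowest adjusted p = 0.0688, for Zfp970 with the block).

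**Figure D3:**
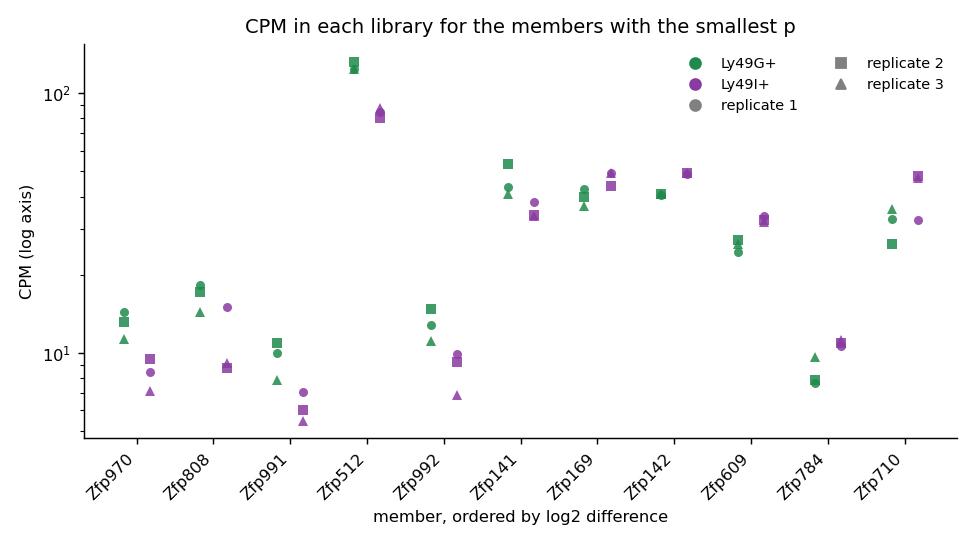
CPM (log axis) in each of the 6 libraries for Zfp512 and for the 5 members in each direction with the next smallest p, ordered by log2 difference; colour gives the population and marker shape the replicate. Only Zfp512 passed the main test; its Ly49G+ points at 124.0 to 132.0 CPM lie above its Ly49I+ points at 80.31 to 87.89.

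Members higher in Ly49I+ were fewer and differed less. Of the 222 members, 10 passed the filter on low values through Ly49G+ libraries alone and 6 through Ly49I+ libraries alone. The direction of these members was partly fixed by the filter. With each library's trend over transcript GC content removed, as set out below, the median log2 difference over members was -0.004. That fit called 1 of the 222 members in each direction, beside 6.11% of all genes with both directions together. Zfp609, whose product binds the cohesin loader NIPBL and the Integrator complex, stood at 24.52, 27.21 and 26.35 CPM in Ly49G+ and 33.61, 32.50 and 31.94 in Ly49I+. Its groups were apart, with a log2 difference of -0.33 ± 0.09 (adjusted p = 0.0850, and 0.0459 with the block, in a range of 0.0459 to 0.256 over 15 alternatives). Zfp142, the member with 36 fingers, stood at 40.42, 40.80 and 40.98 against 48.65, 49.28 and 49.39 CPM. The 3 values of each population nearly coincided, yet the test, which borrows spread from other genes, gave a difference of -0.27 ± 0.08 with an adjusted p of 0.0901 (range 0.0520 to 0.271). With each library's trend over transcript GC content removed, an alternative chosen after the data were seen, it was -0.17. Of the exon bases of Zfp142 18.5% lie also in other genes.

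Zfp169, a KRAB member of low GC content (40.6%), ran against the direction of most such members. It stood at 42.80, 39.75 and 36.86 CPM in Ly49G+ and 49.49, 43.77 and 49.47 in Ly49I+, with groups that just did not overlap and a difference of -0.26 ± 0.09 (adjusted p = 0.172). With the GC trend removed in the same way, the difference was -0.37 and the adjusted p 0.0265, in a range of 0.0265 to 0.411. Zfp710 was at 32.71, 26.30 and 35.97 CPM in Ly49G+ and 32.48, 47.91 and 47.13 in Ly49I+, so Ly49I+ replicate 1 lay among the Ly49G+ values (-0.41 ± 0.16, adjusted p = 0.201). Without that library the difference was -0.60 (adjusted p = 0.0216, in a range of 0.0216 to 0.545). Zfp784 had groups apart, at 7.68, 7.83 and 9.60 against 10.60, 10.93 and 11.20 CPM (-0.39 ± 0.16, adjusted p = 0.228). Other genes cover 94.8% of its exon bases, and it reached 10 CPM in Ly49I+ libraries only.

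The 6 highest members per kb were all higher on average in Ly49G+, by 0.13 to 0.29 on the log2 scale, with no call. With the GC trend removed these differences were smaller, at 0.05 for Zfp207, 0.08 for Zfp869, 0.01 for Zfp292, 0.16 for Zfp800, 0.08 for Zfp143 and 0.15 for Zfp62, again with no call. For Zfp62, at 223.3, 213.1 and 203.9 against 199.5, 174.3 and 156.4 CPM, the groups did not overlap (0.28 ± 0.09, adjusted p = 0.137, and 0.0200 with the block). For Zfp800, at 193.0, 189.9 and 163.7 against 178.7, 141.1 and 130.8 CPM, they did (0.29 ± 0.12, adjusted p = 0.212, and 0.0245 with the block). Leaving out Ly49I+ replicate 1 brought Zfp62 and Zfp800 past the threshold too, at adjusted p of 0.0239 and 0.0217, in ranges of 0.0200 to 0.378 and 0.0217 to 0.521.

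The number of members called depended on the pairing of libraries and on 1 library. With the replicate block 15 members passed, 14 higher in Ly49G+ and 1 higher in Ly49I+, or 6.76% of members. That share, with both directions together, is below the background, since the same fit called 11.7% of all genes. By direction it called 5.69% of all genes higher in Ly49G+ (485 of 8520) and 5.96% higher in Ly49I+ (508 of 8520). The 14 of 222 members higher in Ly49G+ are thus a slightly larger share than that of all genes, and the 1 higher in Ly49I+ a smaller one. The 15 were Zfp512, Zfp62, Zfp800, Zfp808, Zfp970, Zfp141, Zfp992 and Zfp609, described above, and Zfp945, Zfp994, Zfp260, Zfp606, Zfp386, Zfp942 and Zfp51, named after their values were seen. KRAB members make up 10 of the 15, all higher in Ly49G+, and 128 of the 222 members as a whole. Among these 10, the presence of Zfp970, Zfp992 and Zfp808 in the table depended on Ly49G+ libraries. Their direction was thus partly fixed by the filter. Without Ly49I+ replicate 1, 11 members passed, 10 of them higher in Ly49G+ (7.56% of all genes passed). Leaving out any other single library left Zfp512 as the one member called.

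As a group the KRAB members were slightly higher in Ly49G+ on average, while the others were not. The median log2 difference was 0.09 over the 128 KRAB members and -0.01 over the 94 others, beside -0.02 over all genes. The mean was higher in Ly49G+ for 92 KRAB members (71.9%), for 43 of the others (45.7%) and for 46.5% of all genes. In all 3 same-numbered pairs of libraries 46 KRAB members (35.9%) were higher in Ly49G+ and 8 (6.25%) lower, where all genes gave 23.6% and 25.9%. Of all 222 members, 10 passed the filter on low values through Ly49G+ libraries alone and 6 through Ly49I+ libraries alone. Those with the box are counted here, though their direction was partly fixed by the filter. Of the 128, none passed the main test, and 19 were higher and 1 lower at an unadjusted p under 0.05 (15.6%, beside 19.8% of all genes). With the block 10 passed, or 7.81%, beside 11.7% of all genes. With both directions together, KRAB members lay below the background by both counts. The 10 called with the block were all higher in Ly49G+, a direction in which 5.69% of all genes passed. At an unadjusted p under 0.05 in limma, 817 of all 8520 genes were higher in Ly49G+ and 870 lower. In the direction of Ly49G+ alone the KRAB shares were thus above those of all genes, with no test between them.

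The shift was not shared by all libraries of a population. Relative to each gene's mean over the 6 libraries, KRAB members averaged 0.13, 0.08 and -0.06 on the log2 scale in Ly49G+ replicates 1, 2 and 3 and 0.10, -0.10 and -0.15 in Ly49I+ replicates 1, 2 and 3. Ly49I+ replicate 1 was thus as high as the upper Ly49G+ libraries and Ly49G+ replicate 3 lay below it, so the groups overlapped. Of the 128 KRAB members, 105, 94 and 40 were above their own mean in the Ly49G+ replicates and 101, 30 and 18 in those of Ly49I+. Members without the box averaged between -0.02 and 0.05 in every library, but that average joins sets that moved in opposite directions. The 24 of them with a transcript GC content of 43.2% or less averaged 0.123, 0.085 and -0.033 in Ly49G+ replicates 1, 2 and 3. In Ly49I+ replicates 1, 2 and 3 these 24 averaged 0.086, -0.087 and -0.175, a pattern like that of KRAB members. The other 70 averaged from -0.06 in Ly49G+ replicate 1 to 0.126 in Ly49I+ replicate 3. The 3 libraries with positive KRAB averages were those with the fewest reads, 33599679, 36126707 and 34634383, and the part of depth was not tested.

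**Figure D4:**
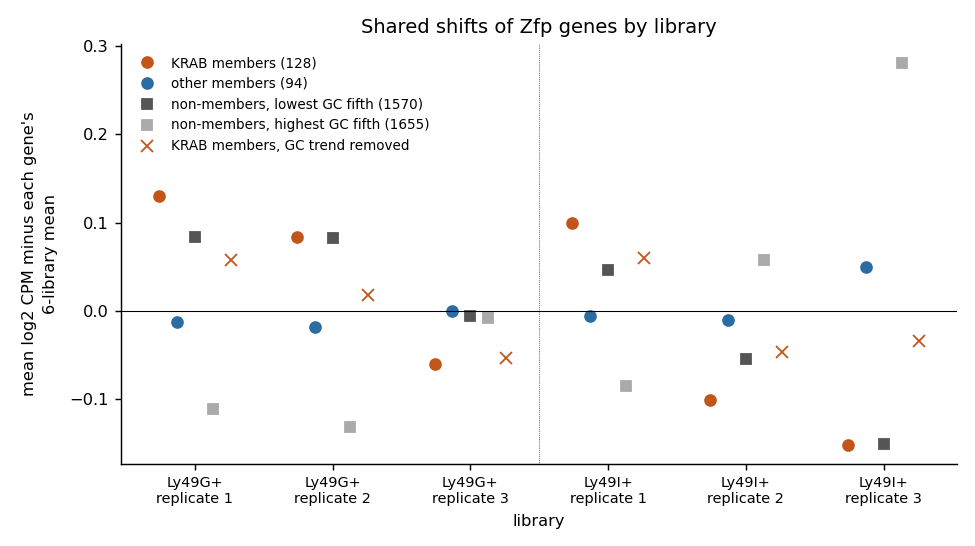
Mean over genes of log2 CPM minus the gene's own mean over 6 libraries, for KRAB members, other members, and the non-member genes of lowest and highest transcript GC content; crosses show KRAB members after each library's trend over GC content was removed. KRAB members run from 0.13 in Ly49G+ replicate 1 to -0.15 in Ly49I+ replicate 3, with Ly49I+ replicate 1 at 0.10 and Ly49G+ replicate 3 at -0.06.

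Genes outside the family with transcripts of like GC content moved with the KRAB members across the libraries. The median GC content of KRAB member transcripts was 40.9%, against 48.9% for all genes, and 88 of the 128 (68.8%) fell among the 1682 genes of lowest GC content, those at 43.2% or less. The 1570 non-members among these averaged 0.08, 0.08 and -0.01 in Ly49G+ and 0.05, -0.06 and -0.15 in Ly49I+ libraries, while the 1655 non-members of highest GC content, above 54.7%, averaged -0.11, -0.13, -0.01, -0.09, 0.06 and 0.28. The median log2 difference between populations was 0.13 for the 88 KRAB members of low GC content, 0.11 for the 24 other members of low GC content and 0.11 for the 1570 non-members. For the 40 KRAB members of higher GC content it was 0.00. Over members the log2 difference and GC content had a Spearman rho of -0.60, and over the 8406 genes with a transcript -0.51, values that describe genes of the same libraries.

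**Figure D5:**
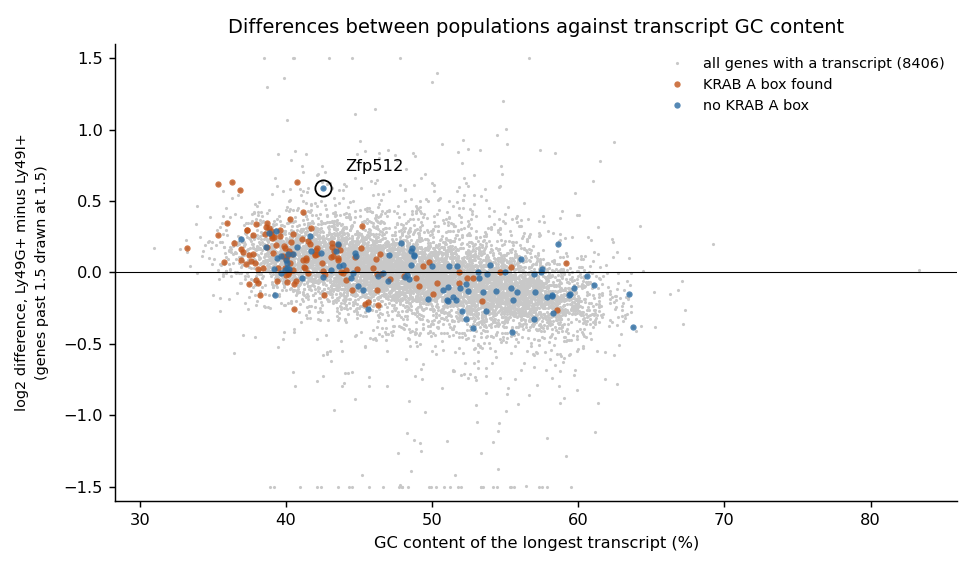
Log2 difference (Ly49G+ minus Ly49I+) against the GC content of the gene's longest transcript, for the 8406 genes with a transcript (grey) and for members with and without a KRAB A box; Zfp512 is ringed. Members follow the downward slope of all genes (Spearman rho -0.60 and -0.51), and Zfp512, at 42.5% GC, lies above it.

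With the GC trend of each library removed, the median difference of KRAB members was 0.01 and 2 members were called, Zfp512 higher in Ly49G+ and Zfp169 lower, with 6.11% of all genes called. Zfp512 then differed by 0.50 (adjusted p = 0.00148). Removing the trend and blocking on replicate number together called the same 2 members, and 7.53% of all genes. Of the 15 members called with the block alone, Zfp512 was the one that passed in this fit. KRAB members still averaged 0.06 in Ly49G+ replicate 1 and in Ly49I+ replicate 1 after removal of the trend.

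By position the members fell into 19 clusters of at least 3, joined where gaps were at most 500 kb. These held 114 members, 87 of them KRAB, while 82 members stood alone, 24 of them KRAB. Chromosome 7 carried 52 members, chromosome 17 carried 30 and chromosome 13 carried 21. The largest cluster, 17 KRAB members between 21008941 and 23193284 on chromosome 17, had a median log2 difference of 0.12, with 13 members higher on average in Ly49G+ and a median GC content of 38.1%. It includes Zfp945, Zfp994, Zfp942 and Zfp51, called with the block. In the next, 13 KRAB members between 67038594 and 67827000 on chromosome 13, 12 were higher on average in Ly49G+ (median 0.20, GC content 39.1%). In contrast the 4 members between 4915181 and 5038446 on chromosome 7, Zfp628, Zfp579, Zfp865 and Zfp784, none with a KRAB box, all had lower means in Ly49G+ (median -0.35) and had a median GC content of 60.2%. Of these 4, Zfp628, Zfp579 and Zfp784 passed the filter on low values through Ly49I+ alone, so their shared direction was partly fixed by it. Not every cluster followed its GC content. In 6 members between 47835633 and 48086986 on chromosome 6, with a median GC content of 55.0%, 5 had higher means in Ly49G+ (median 0.05). In 3 KRAB members between 150114407 and 150451501 on chromosome 2, with 37.9%, 1 did (median -0.08).

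None of the co-repressors that KRAB proteins work through passed the main test. Of 28 listed genes all were measured, 0 passed in limma in either direction, and at an unadjusted p under 0.05 3 were higher and 0 lower in Ly49G+ (10.7%). Over all genes 3.59% passed and 19.8% were under 0.05 unadjusted, so a count of 0 in so short a list is near the background. Trim28, the scaffold itself, stood at 150.4, 161.3 and 149.9 CPM in Ly49G+ and 131.6, 157.1 and 174.5 in Ly49I+ (log2 difference 0.00 ± 0.10, adjusted p = 0.987). Setdb1, the histone H3 methyltransferase, was at 86.24 ± 1.28 and 87.80 ± 3.70 CPM. Their groups overlapped. Cbx3, which encodes the heterochromatin protein HP1 gamma, was at 48.07, 52.43 and 48.49 CPM in Ly49G+ and 42.10, 39.15 and 39.60 in Ly49I+ (0.30 ± 0.08, adjusted p = 0.0819, and 0.0403 with the block). With the GC trend removed its difference was 0.17 (adjusted p = 0.256). Its groups did not overlap. With the block Cbx3 and the deacetylase gene Hdac2 passed, both higher in Ly49G+, which is 7.14% of the list beside 11.7% of all genes. With the GC trend removed 1 of the 28 genes was called, beside 6.11% of all genes. It was Chd3, which encodes a remodeller of the NuRD complex (log2 difference 0.30, adjusted p = 0.0350). Without that removal Chd3 stood at 530.2 ± 22.1 and 471.1 ± 25.7 CPM, with a difference of 0.17 and an adjusted p of 0.230.

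How the table was filtered bears on the low members, and the filter is inferred here from the values. Every gene in it reached 10 CPM in at least 2 libraries, 196 of the 222 members did so in all 6, and the smallest count of any member in a library was 198 reads. Through Ly49G+ libraries alone 10 members passed the filter, and 6 did through Ly49I+ libraries alone, so their direction was partly fixed by the filter, and 4 passed with 1 library of each. The share of transcript windows found in other genes was over 10% for 20 members and 0 for 156. For 13 members over 20% of exon bases lie in other genes.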

How the data were processed

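RNA of 3 Ly49G+ and 3 Ly49I+ sorted NK cell libraries was sequenced from strand-specific total RNA libraries (0.4 µg RNA, pairs of 100-base reads), per the labels' protocols. The submitters' processing notes name limma, build mm10, STAR 2.3.0 and CASAVA 1.8.2; the counter, annotation and filter are not stated in the labels or notes. The authors deposited log2 CPM for 8520 genes. The values follow limma's voom formula (an offset of 0.5 on each count and of 1 on the library's total), and solving it gave whole reads for 100% of values within 0.001 read. Symbols were matched for 8429 genes, and 91 found none.

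Ly49G+ was set against Ly49I+ in limma 3.58.1 (R 4.3.3) by linear models with empirical Bayes moderation and an intensity trend, two-sided, with Benjamini-Hochberg adjustment over 8520 genes at 0.05. The main fit was also run on simulated data with independent noise for each gene. That simulation held no shift shared over GC content and no pairing of libraries, so it cannot speak to either. Same-numbered libraries had correlations of deviations from group means of 0.37, 0.11 and 0.16, all over 0.1, but differently numbered ones reached 0.36 (Ly49G+ replicate 3 with Ly49I+ replicate 2) and 0.12 (replicate 2 with 1). Pairing is thus a hint from the data, and blocked values are given where a call changes; the labels do not say what a number marks. Alternatives were the block, no trend, a robust prior, a mean log2 of at least 4, equal library medians, log2(CPM + 1), voom weights on the recovered reads, each library left out and, chosen after the data were seen, removal of each library's lowess trend over GC content (span 0.3). Members named are those called, the 5 with the smallest p in each direction among the rest, the 6 highest and lowest per kb, the 5 of widest spread and a list of 20 with known roles. The members, lists and co-repressors were chosen with earlier results of these data known. Transcripts, GC content and translated proteins came from GENCODE vM21, and promoters, coordinates and names from RefSeq GRCm38.p6. Tables were handled with Python 3.11.15, pandas 2.3.3, numpy 2.4.6 and scipy 1.17.1, and plots drawn with matplotlib 3.10.9.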

Additional observations from a re-analysis of the deposited data

How the results depend on the processing

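The count of 1 member called was 15 with the replicate block, 2 without the intensity trend, 2 with the GC trend removed and 2 with the GC trend removed and the block, and it ran from 1 to 11 when single libraries were left out, 11 without Ly49I+ replicate 1. A robust prior, a minimum mean, equal library medians, log2(CPM + 1) and voom weights each left 1. The count of 0 co-repressors was 2 with the block, 1 with the GC trend removed and 1 with both, and 0 in the other alternatives. Over the 17 members whose differences are given with alternatives, 236 of the refits kept the side of the threshold, 14 brought a member past it, and 0 reversed or lost a call. Among the members and co-repressors, pairing changed no call other than the 14 members and the 2 co-repressors it added; over all genes it raised the count from 306 to 993. The cause of these changes was not tested. Members were read by a median of 1153 reads a library, down to 198 for the lowest, and counting error was not separated from the spread between libraries.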

Other observations

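Other zinc finger families were measured in the same libraries. Of 29 Zbtb genes, whose products join a BTB domain to zinc fingers, 1 was higher in Ly49G+, 1 was higher in Ly49I+ and 27 did not pass. Thus 6.90% were called, beside 3.59% of all genes. With the block the share was again 6.90%, beside 11.7% of all genes. With the GC trend removed 1 of the 29 was called, beside 6.11% of all genes. Without adjustment 6.90% were under 0.05 in limma, beside 19.8% of all genes. Zbtb16, which encodes PLZF, a factor of innate-like lymphocytes, stood at 32.56, 33.19 and 30.74 CPM in Ly49G+ and 39.79, 45.09 and 43.44 in Ly49I+ libraries, with groups apart (log2 difference -0.41 ± 0.09, SE, limma adjusted p = 0.0330). Zbtb18 stood at 37.17, 32.16 and 39.88 against 25.64, 28.42 and 23.22 CPM, also apart (0.50 ± 0.12, limma adjusted p = 0.0429, and 0.0539 with the GC trend removed). The median difference over the Zbtb genes was -0.04. Of 14 Zscan and Zkscan genes, which carry a SCAN domain, 0 passed in limma, and 0 were under 0.05 unadjusted, with differences from -0.22 to 0.19. Over all genes 3.59% passed and 19.8% were under 0.05 unadjusted. No test was made between these families and the rest.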
